A study of Mus musculus with 10 samples.

Results

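The genes described here are those whose symbol starts with Usp, Otud or Otub followed by a digit, together with Uchl3, Uchl5, Vcpip1 and Stambp, while Uchl1 was left out by the same rule. They numbered 59 of the 12803 genes of the expression table. By family, 46 were ubiquitin-specific proteases (USP), 9 were ovarian tumour proteases (OTU, with Vcpip1), 2 were ubiquitin C-terminal hydrolases (UCH) and 1, Stambp, was a zinc metalloprotease of the JAMM class. The symbol rule also took in Usp6nl, which encodes a GTPase-activating protein of Rab GTPases and not a deubiquitinase.

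RNA was measured in skeletal muscle stem cells of young male C57BL/6 mice, sorted from limb muscle as cells positive for VCAM and negative for CD45, CD31 and Sca1. Tubastatin A, which blocks the cytoplasmic deacetylase HDAC6, was given at 40 µM for 24 h in culture to the cells of 4 animals. Cells of 3 animals were cultured for 24 h with an equal volume of its solvent DMSO (vehicle). Cells of 3 animals were analysed straight after the sort (fresh, 0 h). The labels do not say whether the groups shared animals. Both cultured groups grew in medium with 10% horse serum on coated plastic, and each library came from a single animal. The treatment was a single dose of 1 compound at 1 time, so neither its target nor its time course can be read from these libraries, and vehicle and fresh cells differ in culture, serum and time together.

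Ubiquitin is a small protein that is attached to other proteins, singly or as chains, by the successive action of E1, E2 and E3 enzymes, and it marks them for the proteasome, for sorting in membranes or for a change of activity. Deubiquitinases cut it off again: they spare substrates from degradation, trim chains, recycle ubiquitin at the proteasome and process the ubiquitin precursors. Muscle stem cells are quiescent in intact muscle, and they leave quiescence and prepare for division when they are isolated and cultured.

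Values are RPKM: reads divided by gene length in kilobases and by a library size that the authors had scaled. Differences are given as log2 changes on the scale of log2(RPKM + 1), from limma fitted to all 12803 genes, and a gene is said to have risen or fallen where its p, adjusted by Benjamini and Hochberg over all genes, was under 0.05. The added 1 RPKM understates the change of low genes, and 8 of the 59 genes averaged under 1 RPKM. The libraries held 36.6M to 53.7M reads of Tubastatin A cells, 39.2M to 42.9M of vehicle cells and 38.4M to 49.5M of fresh cells. At these depths 1 read in a gene of 1 kb was worth 0.0160 to 0.0339 RPKM. All 9 muscle stem cell markers were measured, with a summed level of 782.2 to 861.2 RPKM in Tubastatin A cells, 1556 to 1780 RPKM in vehicle cells and 2251 to 3241 RPKM in fresh cells. Endothelial markers (7 of 7 measured) summed to 4.45 to 5.63, 1.64 to 2.22 and 32.6 to 44.7 RPKM in Tubastatin A, vehicle and fresh cells, and fibro-adipogenic markers (6 of 6) to 7.60 to 13.0, 39.1 to 47.1 and 406.8 to 772.6 RPKM. Pericyte and smooth muscle markers (5 of 5) summed to 11.3 to 61.7, 174.2 to 239.0 and 197.5 to 243.4 RPKM in the same order, and tenocyte markers (4 of 4) to 2.45 to 9.31, 66.0 to 77.3 and 40.4 to 58.7 RPKM. Of the immune list 2 of 7 genes were measured (2.51 to 3.89, 0.691 to 0.890 and 5.08 to 8.32 RPKM), of the Schwann cell list 2 of 4 (0.0848 to 0.101, 0.169 to 0.361 and 4.64 to 7.96 RPKM) and of the erythroid list 1 of 3 (0.0111 to 0.0993, 0.0111 to 0.0862 and 4.63 to 17.4 RPKM). Mature myofibre markers (6 of 6) summed to 3.66 to 328.3 RPKM in Tubastatin A cells, where the actin gene Acta1 reached 311.0 RPKM in replicate 2, to 15.5 to 23.7 RPKM in vehicle cells and to 44.4 to 51.7 RPKM in fresh cells. The sums of treated and vehicle cells thus overlapped for the mature myofibre and erythroid lists and not for the others. Against fresh cells they overlapped for pericyte and smooth muscle markers in vehicle cells and for myofibre markers in treated cells. A sum can hide members that go apart, as 3 of the 4 tenocyte genes fell and 1 rose in vehicle against fresh cells. By gene, 88.9% of muscle stem cell markers were called between treated and vehicle cells. In the other lists it was 0% to 50%, beside 59.3% of all genes. The part of these other cell types in the 3 comparisons was not tested, and in bulk RNA fewer cells of a type and less RNA per cell cannot be told apart.

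Under Tubastatin A the deubiquitinase genes were called in both directions, at the same share as all genes. Against vehicle, 22 of 59 rose and 13 fell (59.3% called), and 24 did not pass. Of all genes 29.6% and 29.7% were called higher and lower (59.3% in all). On the log2(RPKM + 1) scale, Usp20, Usp11, Usp14 and Usp13 rose most and Usp1 fell most. By the ratio of mean RPKM, Usp18 (5.93 times) and Usp13 (4.88 times) rose most. Usp43, with a vehicle mean 11.2 times the treated mean, fell most. Of its treated values 2 had 0 reads and stand at a floor, so its ratio depends on that floor. The median log2 change of the 59 genes was 0.18, beside 0.02 over all genes. The libraries of both groups did not overlap in 41 genes (68.6% of all genes did not). Without replicate 2 of the treated cells, the library with the high Acta1 value, 19 rose and 14 fell. Over all 12803 genes that fit called 3453 higher and 3542 lower, in place of 3796 and 3798.

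After 24 h of culture in vehicle, 19 of the 59 genes had risen and 19 had fallen relative to fresh cells, beside 32.0% and 35.0% of all genes (67.0% in all), and 40 showed no overlap between libraries (67.6% of all genes). On the log2(RPKM + 1) scale, Usp1 rose most, and Usp2 and Usp11 fell most. By the ratio of mean RPKM, Usp43 (4.79 times) and Usp51, which had 1 read over the 3 fresh libraries together, stood above Usp1 (3.99 times), and Usp18, with a fresh mean 17.0 times the vehicle mean, fell more than Usp11 (10.6 times). The median log2 change was 0.11, beside -0.03 over all genes. Between Tubastatin A and fresh cells, 21 genes were higher and 10 lower (29.8% and 35.2% of all genes, 64.9% in all), with no overlap in 30 (61.3%) and a median of 0.15 beside -0.03. The 3 comparisons share libraries, so their counts are not independent.

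Comparisons with fresh cells depended on the scale. The values of fresh libraries summed to between 392700 and 436300 RPKM, against 235100 to 278000 RPKM in cultured libraries. When the totals were set equal, all genes shifted upward by a median of 0.49 in vehicle against fresh, 0.59 in Tubastatin A against fresh and 0.11 in Tubastatin A against vehicle. The deubiquitinase genes then split into 33 higher and 9 lower for vehicle against fresh, where 49.1% and 22.6% of all genes were called higher and lower. For Tubastatin A against fresh cells they split into 44 and 6 (54.7% and 19.4% of all genes), and for Tubastatin A against vehicle into 28 and 11 (34.8% and 26.4%). The summed level of the 59 genes overlapped among the groups on the deposited scale, at 687.2 to 768.9 RPKM in Tubastatin A cells, 687.7 to 777.9 RPKM in vehicle cells and 659.0 to 801.4 RPKM in fresh cells. Whole reads were recovered for 57 of the 59 genes, without Usp25 and Usp27x, and for 12341 genes of the table. Of the reads of these 12341 genes, the 57 genes held 0.476% to 0.537%, 0.397% to 0.478% and 0.282% to 0.362% in the same groups.

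**Figure D1:**
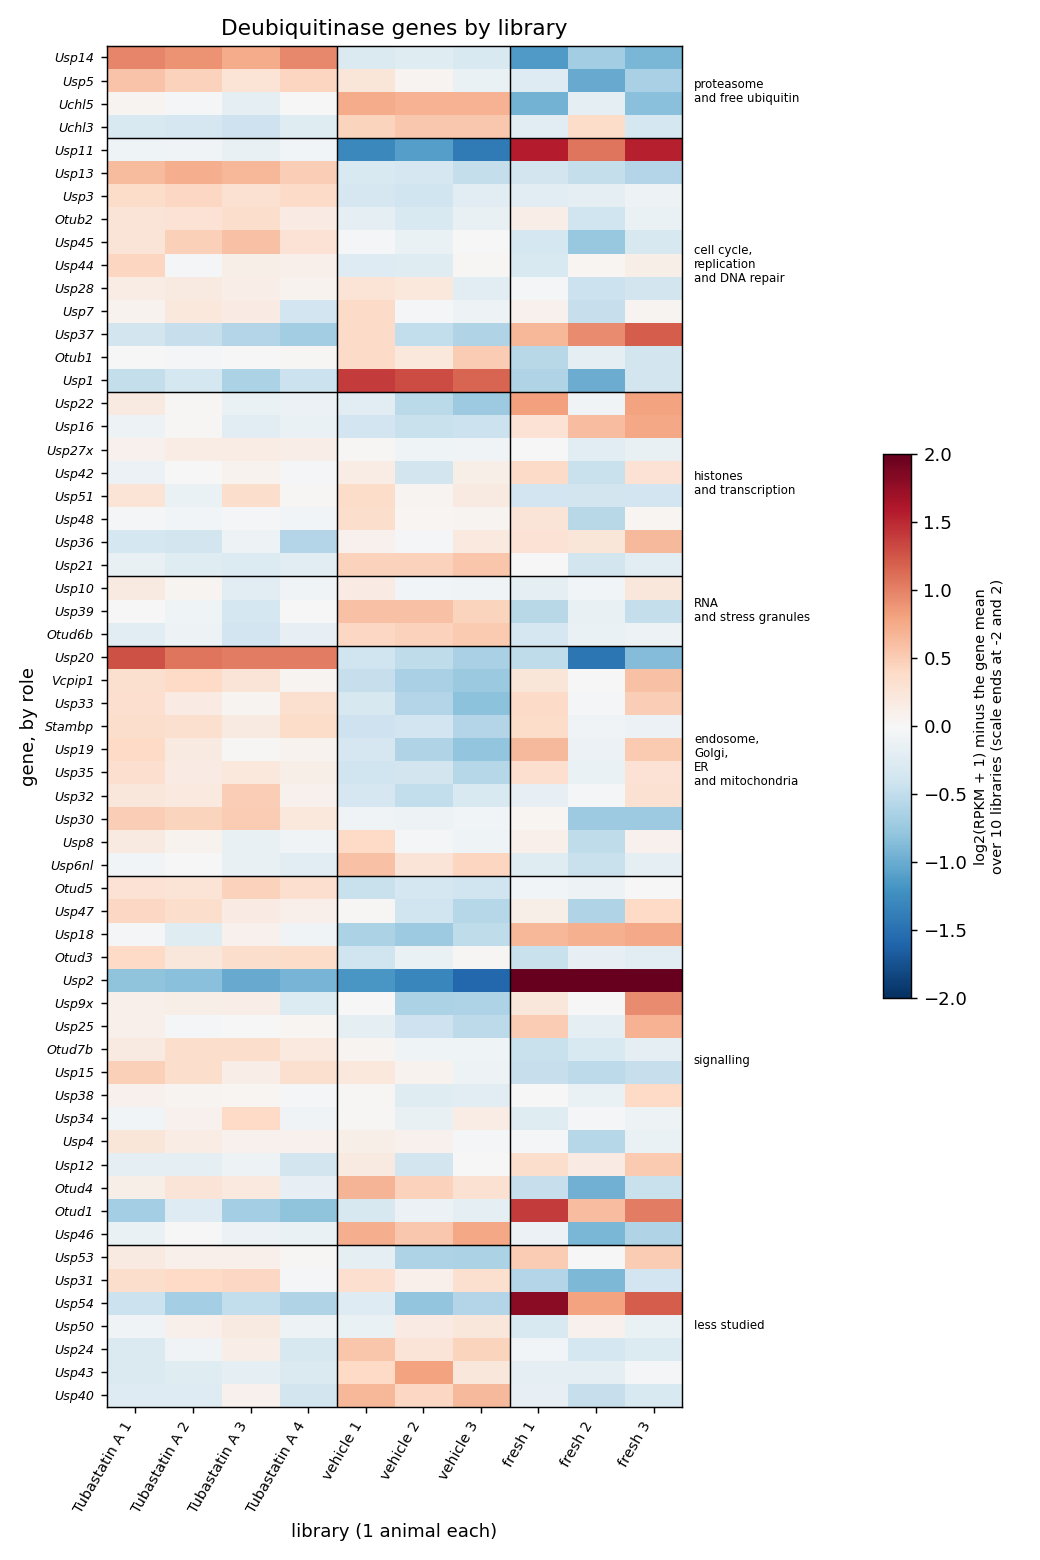
Level of each of the 59 genes in each of the 10 libraries (columns, Tubastatin A, vehicle and fresh), as log2(RPKM + 1) minus the gene's mean over the libraries, with genes grouped by role. Usp2 in fresh cells lies beyond the end of the colour scale, and Usp1 stands out as high in the 3 vehicle libraries alone.

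By group mean on the deposited scale, 22 of the genes were highest in Tubastatin A cells, 19 in vehicle cells and 18 in fresh cells, while 11, 20 and 28 were lowest there. The same was not counted over all genes, so these counts have no background, and the place of fresh cells depends on the scale. The median coefficient of variation among libraries was 10.5%, 13.2% and 23.1% in Tubastatin A, vehicle and fresh cells. Replicate 2 of the fresh cells was the lowest fresh library in 38 of the 59 genes (64.4%, against 40.5% of all genes), and replicate 1 of the vehicle cells was the highest vehicle library in 36 (61.0%, against 34.9% of all genes). The levels spanned a wide range: mean levels over all libraries lay between 0.319 and 54.2 RPKM, with a median of 6.17 RPKM beside 5.92 RPKM for all genes.

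**Figure D2:**
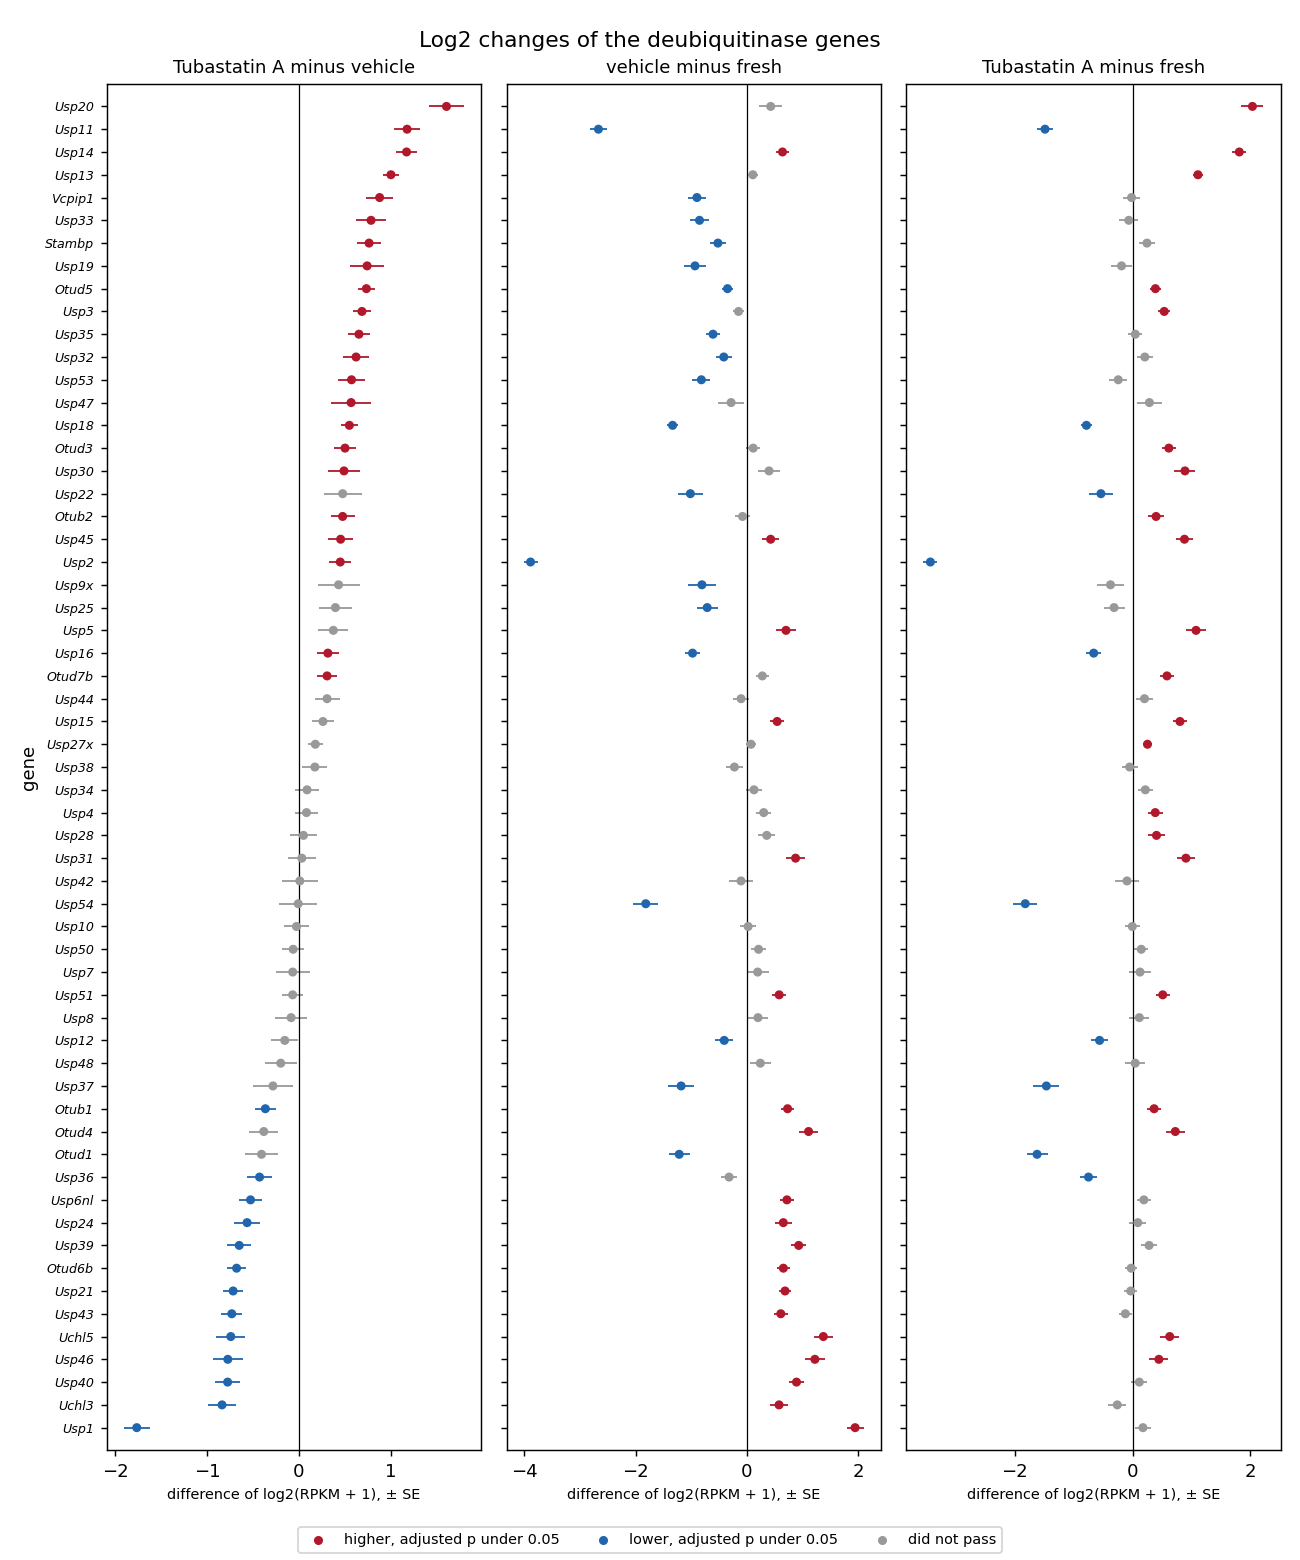
Difference of log2(RPKM + 1) with its standard error for each of the 59 genes (rows, ordered by the first panel) in Tubastatin A minus vehicle, vehicle minus fresh and Tubastatin A minus fresh; red and blue points passed an adjusted p of 0.05 and grey points did not. The order from Usp20 (1.61) to Usp1 (-1.76) in the first panel is not the order of the other panels, where Usp2 is lowest (-3.88 and -3.43).

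The proteases that work at the proteasome and on free ubiquitin were 4. All 4 had risen in vehicle against fresh cells (32.0% of all genes), also with equal totals (49.1% of all genes). Under Tubastatin A they split, with Usp14 higher than in vehicle cells and Uchl5 and Uchl3 lower. Usp14, which trims chains on substrates docked at the proteasome, stood at 56.7, 53.4, 47.7 and 56.0 RPKM in Tubastatin A cells, against 22.8, 23.7 and 22.6 RPKM in vehicle cells and 12.3, 16.9 and 14.5 RPKM in fresh cells. All treated libraries lay above all vehicle libraries, and these above all fresh ones. The treated mean was 2.32 times the vehicle mean (log2 change 1.17, SE 0.12, adjusted p = 4.6e-06), and vehicle cells exceeded fresh cells as well (0.64, SE 0.12, adjusted p = 0.00067). An exon of Usp14 is shared with Thoc1 on the other strand, and reads of the pair cannot be told apart without strand.

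Uchl5, the other cysteine protease of the proteasome, which is held there by Adrm1, had 30.9, 29.4, 26.2 and 29.9 RPKM in Tubastatin A cells, 50.2, 48.8 and 48.6 RPKM in vehicle cells and 14.9, 25.7 and 16.2 RPKM in fresh cells. The 3 groups did not overlap, and vehicle cells were the highest. It fell with Tubastatin A relative to vehicle (log2 change -0.74, SE 0.16, adjusted p = 0.0016) but remained above fresh cells (0.63, SE 0.16, adjusted p = 0.0040). Uchl3, which frees ubiquitin from small adducts and precursors, had 12.8, 12.5, 11.8 and 13.4 RPKM in Tubastatin A cells, 22.2, 23.9 and 23.7 RPKM in vehicle cells and 13.7, 21 and 12.3 RPKM in fresh cells. Every treated library was below every vehicle library (log2 change -0.84, SE 0.15, adjusted p = 0.00052), whereas treated and fresh libraries overlapped. The change against fresh was -0.26 (95% interval -0.59 to 0.07), which turned to 0.41 with equal totals and passed as lower without fresh replicate 3 (-0.40, adjusted p = 0.036).

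Usp5, which takes apart unanchored chains, was the most abundant of the 4 in treated cells, with 77.1, 71.4, 62.6 and 69.3 RPKM in Tubastatin A cells, 61.2, 53.7 and 46.9 RPKM in vehicle cells and 42.6, 25.1 and 32.3 RPKM in fresh cells. The libraries were ordered without overlap, treated above vehicle above fresh. The difference between treated and vehicle cells did not pass (0.38, 95% interval 0.02 to 0.74, adjusted p = 0.067), although it did without fresh replicate 1 or 2 (adjusted p = 0.020 and 0.021). Treated cells stood above fresh cells by 1.08 (SE 0.16, adjusted p = 0.00012).

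**Figure D3:**
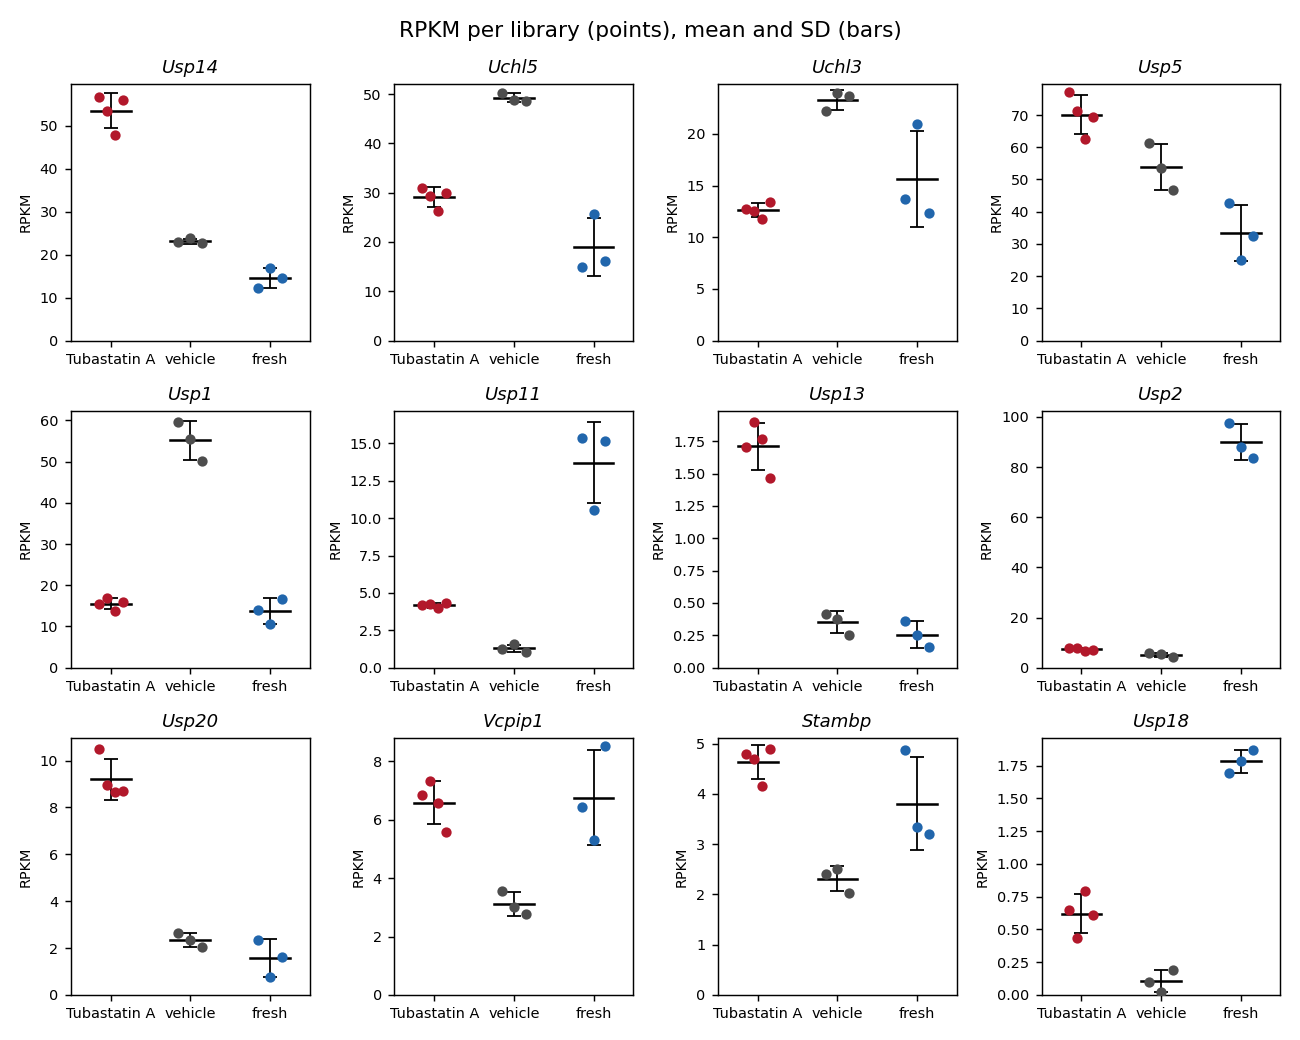
RPKM of 12 of the genes in each library (points) with the mean and SD of each group (bars), for Tubastatin A, vehicle and fresh cells from left to right. Usp14, Usp13 and Usp20 are highest in the 4 treated libraries, Usp1, Uchl5 and Uchl3 in the 3 vehicle libraries, and Usp2, Usp11 and Usp18 in the 3 fresh libraries.

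Of 11 genes with roles in the cell cycle, replication and DNA repair, 5 rose and 2 fell in Tubastatin A against vehicle cells (median 0.31). These calls were 63.6% of the list, beside 59.3% of all genes. Usp1, which with Wdr48 removes ubiquitin from PCNA and from FANCD2, was at 15.5, 16.9, 13.7 and 15.9 RPKM in Tubastatin A cells, 59.6, 55.6 and 50.2 RPKM in vehicle cells and 14.1, 10.6 and 16.8 RPKM in fresh cells. Vehicle libraries were far above those of both other groups, which overlapped with each other. The fall under Tubastatin A was the largest of the 59 genes on the log2(RPKM + 1) scale, but not by the ratio of means, which was larger for Usp43 (log2 change of Usp1 -1.76, SE 0.14, adjusted p = 9.6e-07), and the vehicle mean was 3.99 times the fresh mean (1.94, SE 0.15, adjusted p = 3.9e-07). Between treated and fresh cells the difference was 0.18 (95% interval -0.14 to 0.49) on the deposited scale. With equal totals it was 0.85 and passed.

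Usp11, a relative of Usp4 and Usp15 with a role in repair by recombination, ran otherwise. It had 4.20, 4.25, 3.96 and 4.32 RPKM in Tubastatin A cells, 1.25, 1.57 and 1.07 RPKM in vehicle cells and 15.4, 10.6 and 15.1 RPKM in fresh cells. The groups did not overlap, with fresh cells highest and vehicle cells lowest. The treated mean was 3.23 times the vehicle mean (log2 change 1.18, SE 0.14, adjusted p = 2.1e-05), while the fresh mean was 10.6 times the vehicle mean (-2.67, SE 0.15, adjusted p = 2.5e-08). Treated cells lay below fresh cells by 1.49 (log2 change -1.49, adjusted p = 2.3e-06), and these calls kept their direction and passed with equal totals.

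Usp13, a relative of Usp5 that acts on proteins of autophagy and of degradation from the ER, was counted in this list. The gene was low in untreated cells. It stood at 1.71, 1.90, 1.77 and 1.46 RPKM in Tubastatin A cells, from 551 to 829 reads. Levels were 0.417, 0.378 and 0.255 RPKM in vehicle cells, from 87 to 152 reads, and 0.358, 0.254 and 0.157 RPKM in fresh cells, from 37 to 107 reads. Treated libraries were apart from all others, and vehicle and fresh libraries overlapped. The ratio of mean RPKM was 4.88 against vehicle (log2 change 1.0, SE 0.09, adjusted p = 2.2e-06) and 6.67 against fresh (1.11, SE 0.09, adjusted p = 6.4e-07).

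Otub1, which blocks the E2 enzyme Ube2n without cutting ubiquitin, had 32.6, 32.4, 32.8 and 33.3 RPKM in Tubastatin A cells, 43.0, 38.0 and 46.9 RPKM in vehicle cells and 21.9, 28.9 and 25.3 RPKM in fresh cells. The groups were separate and the treated libraries were nearly alike. It fell under Tubastatin A (-0.36, SE 0.11, adjusted p = 0.016), a call that was lost without vehicle replicate 3 (-0.29, adjusted p = 0.079) and with equal totals (-0.25). Usp37, which acts on cyclin A, had 5.54, 5.13, 4.58 and 4.21 RPKM in Tubastatin A cells, 9.89, 4.94 and 4.52 RPKM in vehicle cells and 12.3, 15.1 and 18.5 RPKM in fresh cells. Vehicle replicate 1 was apart from its group, and all fresh libraries were above all cultured ones. The fall against fresh cells was -1.46 in treated cells (SE 0.22, adjusted p = 0.00010) and -1.18 in vehicle cells (SE 0.23, adjusted p = 0.00078). Usp37 shares an exon with Cnot9 on the other strand.

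Usp45, which acts in excision repair with ERCC1, averaged 4.59 ± 0.61 RPKM in Tubastatin A cells, 3.06 ± 0.21 RPKM in vehicle cells and 2.05 ± 0.48 RPKM in fresh cells (SD), and rose against fresh cells in treated libraries (0.88, SE 0.14, adjusted p = 0.00014). Its exon overlaps Tstd3 on the other strand. The smaller steps passed as well, by 0.46 for treated against vehicle (adjusted p = 0.013, and 0.056 without vehicle replicate 2). The other was 0.42 for vehicle against fresh (adjusted p = 0.023, and between 0.060 and 0.068 without vehicle replicate 1, vehicle replicate 3 or fresh replicate 2). Usp7, which acts on p53 and Mdm2, passed in no comparison on the deposited scale. It had 15.5, 17.2, 16.6 and 11 RPKM in Tubastatin A cells, 19.4, 14.4 and 13.7 RPKM in vehicle cells and 15.6, 10.4 and 15.3 RPKM in fresh cells. Its groups overlapped, with a difference between treated and vehicle cells of -0.07 (95% interval -0.47 to 0.34).

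The other genes of this list were Usp3, Usp28, Usp44 and Otub2. Usp3, a protease of ubiquitinated histone H2A, was counted here and not with the histone genes. It rose with Tubastatin A to 11.1 ± 0.38 RPKM, against 6.51 ± 0.50 RPKM in vehicle cells (0.69, SE 0.10, adjusted p = 8.0e-05). Otub2 rose by 0.48 (adjusted p = 0.0076). Usp28 and Usp44 did not pass there, at 0.05 and 0.31, although Usp44 passed without Tubastatin A replicate 2, vehicle replicate 3 or fresh replicate 1 (adjusted p = 0.043, 0.045 and 0.041). Against fresh cells, 6 of the 11 genes were higher and 2 lower in treated cells, or 9 and 2 with equal totals. In vehicle cells 3 were higher and 2 lower, or 6 and 2 with equal totals. On the deposited scale these calls were 72.7% and 45.5% of the list, beside 64.9% and 67.0% of all genes. With equal totals 54.7% and 19.4% of all genes were higher and lower in treated against fresh cells. In vehicle against fresh cells these shares were 49.1% and 22.6%.

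The 10 genes listed under endosomes, the Golgi, the ER and mitochondria include Usp6nl, which is not a deubiquitinase. In Tubastatin A against vehicle cells 8 rose (29.6% of all genes), Usp6nl fell and Usp8 did not pass, with a median of 0.70. The counts were the same with equal totals (34.8% of all genes higher). In vehicle against fresh cells 6 fell and 1 rose, where 35.0% and 32.0% of all genes did. With equal totals 1 fell and 4 rose (22.6% and 49.1% of all genes). Between treated and fresh cells 2 genes passed on the deposited scale, both higher in treated cells. Of all genes 29.8% were called higher and 35.2% lower there. With equal totals all 10 passed as higher, beside 54.7% of all genes.

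Usp20, which acts on membrane receptors and on deiodinase of the ER and is a close relative of Usp33, had 10.5, 8.98, 8.65 and 8.69 RPKM in Tubastatin A cells, 2.63, 2.36 and 2.04 RPKM in vehicle cells and 2.36, 0.751 and 1.60 RPKM in fresh cells. Treated libraries were above all others, and vehicle and fresh libraries overlapped. On the log2(RPKM + 1) scale the rise was the largest of the 59 genes against vehicle (log2 change 1.61, SE 0.19, adjusted p = 1.8e-05) and against fresh cells (2.03, SE 0.19, adjusted p = 1.9e-06), with means 3.93 and 5.85 times as high. The ratio of means was larger for Usp13 and Usp18 against vehicle, and for Usp13 and Usp51 against fresh cells. The difference between vehicle and fresh cells was 0.43 (adjusted p = 0.080) and passed without fresh replicate 1 (0.64, adjusted p = 0.0062). Usp33 had 6.16, 5.35, 4.91 and 6.13 RPKM in Tubastatin A cells, 3.57, 2.81 and 2.23 RPKM in vehicle cells and 6.44, 4.57 and 7.0 RPKM in fresh cells. It rose against vehicle (0.79, SE 0.16, adjusted p = 0.0012), and treated and fresh libraries overlapped.

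Vcpip1, which works with the ATPase Vcp in rebuilding the Golgi after division, had 6.86, 7.33, 6.57 and 5.57 RPKM in Tubastatin A cells, 3.57, 3.02 and 2.76 RPKM in vehicle cells and 6.46, 5.31 and 8.52 RPKM in fresh cells. Vehicle libraries were the lowest, and treated and fresh libraries overlapped. The gene rose with Tubastatin A (0.88, SE 0.15, adjusted p = 0.00036) and fell in vehicle against fresh cells (-0.90, SE 0.16, adjusted p = 0.00037), the fall being lost with equal totals (-0.40). Between treated and fresh cells the change was -0.02 (95% interval -0.35 to 0.31), which turned to 0.60 with equal totals.

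Stambp, which removes ubiquitin from receptors on endosomes, had 4.79, 4.69, 4.15 and 4.90 RPKM in Tubastatin A cells, 2.41, 2.5 and 2.03 RPKM in vehicle cells and 4.86, 3.35 and 3.20 RPKM in fresh cells. It was lowest in vehicle cells, and rose by 0.77 under Tubastatin A (SE 0.13, adjusted p = 0.00043). There was a fall in vehicle against fresh cells of -0.52 (SE 0.14, adjusted p = 0.0069) that was lost with equal totals (-0.07). Treated against fresh cells differed by 0.24, which passed without fresh replicate 1 (0.40, adjusted p = 0.0095). Usp19, an ER-anchored protease known in rat muscle for its rise in wasting, had 48.2, 41.1, 36.8 and 38.3 RPKM in Tubastatin A cells, 28.5, 23.6 and 20.6 RPKM in vehicle cells and 57.6, 33.6 and 52.8 RPKM in fresh cells. Its vehicle libraries were the lowest too, and the rise under Tubastatin A was 0.74 (SE 0.18, adjusted p = 0.0040). It changed by -0.93 in vehicle against fresh cells (SE 0.19, adjusted p = 0.0011), which was lost with equal totals (-0.35). Against fresh cells its treated libraries differed by -0.19, which turned to 0.52 with equal totals and passed as lower without fresh replicate 2 (-0.42, adjusted p = 0.022).

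Usp30, which opposes the removal of mitochondria by autophagy, averaged 4.02 ± 0.46 RPKM in Tubastatin A cells, 2.55 ± 0.071 RPKM in vehicle cells and 1.79 ± 0.93 RPKM in fresh cells. It stood higher in treated than in fresh cells (0.89, SE 0.18, adjusted p = 0.00090). Its rise over vehicle (0.49, adjusted p = 0.032) did not pass without any 1 of Tubastatin A replicates 1, 2 and 3 or of the vehicle replicates (adjusted p between 0.064 and 0.085). The 0.40 of vehicle over fresh cells passed without fresh replicate 1 (0.65, adjusted p = 0.00058). Its exons overlap those of Alkbh2 on the other strand.

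Usp35, linked to mitochondria, and Usp32, linked to late endosomes, rose against vehicle by 0.66 (adjusted p = 0.00046) and 0.62 (adjusted p = 0.0021). Usp32 fell by 0.42 in vehicle against fresh cells, a call lost without vehicle replicate 2 or fresh replicate 3 (adjusted p = 0.093 and 0.10). This call was also lost with equal totals (-0.03). Usp6nl, the Rab regulator, was the gene of this list that fell under Tubastatin A, with 2.70 ± 0.25 RPKM in Tubastatin A cells, 4.34 ± 0.62 RPKM in vehicle cells and 2.25 ± 0.30 RPKM in fresh cells (-0.53, SE 0.12, adjusted p = 0.0029). Usp8, which works on endosomes with Stam, had 29.8, 27.5, 23.5 and 24.7 RPKM in Tubastatin A cells, 34.7, 25.5 and 24.5 RPKM in vehicle cells and 28.1, 18.1 and 27.8 RPKM in fresh cells, and its libraries overlapped in all comparisons. Its change against vehicle was -0.08 (95% interval -0.46 to 0.29).

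**Figure D4:**
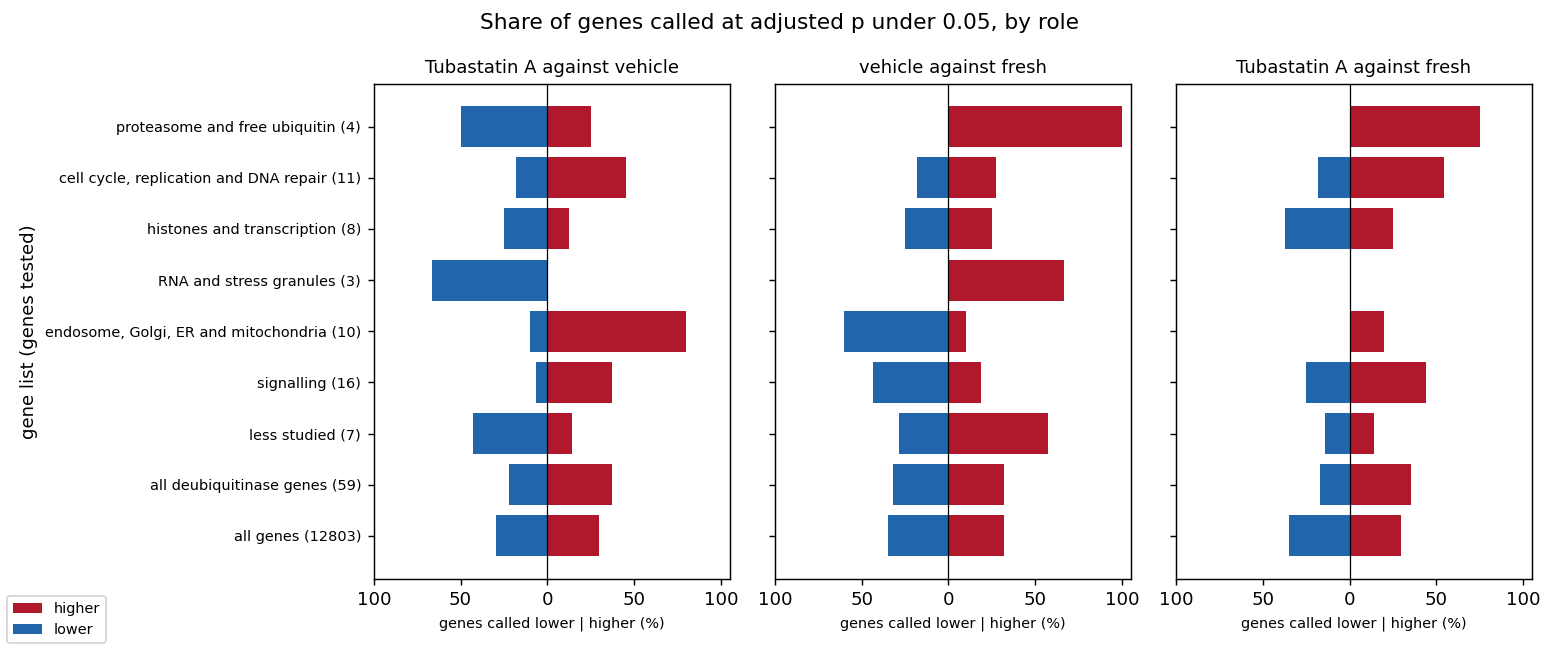
Share of the genes of each role list called lower (left) and higher (right) at an adjusted p under 0.05, in percent, for Tubastatin A against vehicle, vehicle against fresh and Tubastatin A against fresh, beside the 59 genes and all 12803 genes. The endosome, Golgi, ER and mitochondria list has 8 of 10 genes higher in the first panel and 6 of 10 lower in the second, which was 1 of 10 with equal totals (22.6% of all genes).

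Of 16 genes of signalling pathways, 6 rose and 1 fell with Tubastatin A against vehicle (median 0.29, or 8 and 1 genes with equal totals). In vehicle against fresh cells 3 rose and 7 fell, which became 7 and 3 with equal totals. In treated against fresh cells 7 were higher and 4 lower, which became 10 and 3. On the deposited scale the calls were 43.75%, 62.5% and 68.75% of the list in that order, beside 59.3%, 67.0% and 64.9% of all genes. By direction, 29.6% and 29.7%, 32.0% and 35.0%, and 29.8% and 35.2% of all genes were called higher and lower. With equal totals these shares of all genes were 34.8% and 26.4%, 49.1% and 22.6%, and 54.7% and 19.4%. Usp2, whose transcript follows the circadian clock in many mouse tissues and whose protein acts on cyclin D1 and Mdm2, had 7.97, 7.76, 6.74 and 7.16 RPKM in Tubastatin A cells, 5.94, 5.32 and 4.27 RPKM in vehicle cells and 97.7, 88.0 and 83.7 RPKM in fresh cells. Fresh libraries were far above all cultured ones, and treated libraries were slightly above vehicle libraries. The fresh mean was 17.4 times the vehicle mean (log2 change -3.88, SE 0.13, adjusted p = 3.3e-10) and 12.1 times the treated mean (-3.43, SE 0.12, adjusted p = 6.3e-10), both the lowest of the 59 genes. It was higher in Tubastatin A than in vehicle cells by 0.45 (SE 0.12, adjusted p = 0.0059).

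Usp18, which removes the ubiquitin-like protein ISG15 and is induced by interferon, was low throughout: 0.649, 0.436, 0.792 and 0.607 RPKM in Tubastatin A cells, from 70 to 113 reads. Vehicle cells had 0.0971, 0.0251 and 0.192 RPKM, from 13, 3 and 24 reads, and 1.70, 1.78 and 1.87 RPKM in fresh cells, from 147 to 186 reads. The 3 groups did not overlap, and vehicle cells were lowest. It rose with Tubastatin A against vehicle (0.55, SE 0.09, adjusted p = 0.00028) and lay below fresh cells in vehicle (-1.34, SE 0.10, adjusted p = 2.1e-07) and in treated cells (-0.78, SE 0.09, adjusted p = 1.3e-05). Otud1, an OTU protease that restrains innate immune signalling, was lower in both cultured groups than in fresh cells, with 11.4, 15.6, 11.5 and 10.3 RPKM in Tubastatin A cells, 14.9, 17.4 and 16.6 RPKM in vehicle cells and 51.4, 29.6 and 39.6 RPKM in fresh cells. The changes against fresh were -1.62 in treated cells (SE 0.18, adjusted p = 8.3e-06) and -1.22 in vehicle cells (SE 0.19, adjusted p = 0.00013). Treated against vehicle cells differed by -0.41, which passed without Tubastatin A replicate 2 or fresh replicate 1 or 2 (adjusted p between 0.025 and 0.030).

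Otud5, which acts on Traf3 in interferon signalling, had 33.7, 33.3, 37.9 and 34.8 RPKM in Tubastatin A cells, 19.8, 21.1 and 20.6 RPKM in vehicle cells and 26.2, 25.5 and 27.6 RPKM in fresh cells. Its groups were separate, with a rise of 0.74 over vehicle (SE 0.09, adjusted p = 2.9e-05) and a change of -0.35 in vehicle against fresh cells (adjusted p = 0.0073) that turned to 0.23 with equal totals. Otud4 averaged 9.12 ± 1.2 RPKM in Tubastatin A cells, 12.2 ± 1.7 RPKM in vehicle cells and 5.17 ± 1.2 RPKM in fresh cells, and stood above fresh cells in vehicle (1.11, SE 0.17, adjusted p = 0.00011) and in treated cells (0.72, SE 0.16, adjusted p = 0.0017). Its -0.38 against vehicle passed without fresh replicate 1 or 2 (adjusted p = 0.048 and 0.018).

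Usp46 and Usp12 are close relatives that share the activators Wdr48 and Wdr20. Usp46 was at 2.56, 2.90, 2.59 and 2.58 RPKM in Tubastatin A cells, 5.46, 4.66 and 5.67 RPKM in vehicle cells and 2.59, 1.08 and 1.59 RPKM in fresh cells. Vehicle libraries were the highest, with a fall of 0.77 under Tubastatin A (log2 change -0.77, SE 0.16, adjusted p = 0.0015) and a rise of 1.22 in vehicle against fresh cells (SE 0.17, adjusted p = 6.2e-05). The 0.45 of treated over fresh cells (adjusted p = 0.031) did not pass without any 1 of the Tubastatin A libraries or of fresh replicates 2 and 3 (adjusted p between 0.051 and 0.12). Usp12 went the other way against fresh cells, at 4.98 ± 0.45 RPKM in Tubastatin A cells, 5.71 ± 1.3 RPKM in vehicle cells and 7.84 ± 1.1 RPKM in fresh cells, and the change was -0.56 in treated cells (SE 0.15, adjusted p = 0.0055), a call that turned to 0.06 with equal totals. In vehicle against fresh cells Usp12 changed by -0.41 (adjusted p = 0.037), which turned to 0.11 with equal totals and was lost without Tubastatin A replicates 1 or 2, vehicle replicates 2 or 3 or fresh replicates 1 or 3 (adjusted p between 0.052 and 0.18).

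Usp15, which acts on receptors of the TGF-beta pathway, averaged 9.85 ± 1.1 RPKM in Tubastatin A cells, 8.04 ± 0.97 RPKM in vehicle cells and 5.19 ± 0.17 RPKM in fresh cells, and was above fresh cells in treated (0.80, SE 0.12, adjusted p = 8.4e-05) and vehicle cells (0.54, SE 0.13, adjusted p = 0.0024). Its 0.26 over vehicle passed without Tubastatin A replicate 3 (0.33, adjusted p = 0.037). Usp9x, an X-linked protease of many signalling proteins, had 4.66, 4.74, 4.76 and 3.37 RPKM in Tubastatin A cells, 4.30, 2.40 and 2.44 RPKM in vehicle cells and 5.16, 4.31 and 9.18 RPKM in fresh cells. Its 0.43 over vehicle did not pass (95% interval -0.07 to 0.94) but did without vehicle replicate 1 (0.65, adjusted p = 0.040). Vehicle cells were below fresh cells by 0.81 (log2 change -0.81, adjusted p = 0.012), a call lost with equal totals (-0.32).

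The remaining signalling genes were Usp4, Usp25, Usp34, Usp38, Usp47, Otud3 and Otud7b. Otud3 rose with Tubastatin A to 18.8 ± 1.0 RPKM, against 13.0 ± 2.1 RPKM in vehicle cells (0.50, SE 0.12, adjusted p = 0.0036). Usp47 and Otud7b passed at 0.57 and 0.31, and neither call held without each library. For Usp47 it was lost without any 1 of Tubastatin A replicates 1 to 3 and vehicle replicates 2 and 3 (adjusted p between 0.059 and 0.16), and for Otud7b without any 1 of Tubastatin A replicates 2 and 3 and vehicle replicates 2 and 3 (adjusted p between 0.071 and 0.10). Usp4, Usp34 and Usp38 overlapped between treated and vehicle cells, with differences of 0.08, 0.09 and 0.18. Usp25 had libraries in Tubastatin A cells above all vehicle libraries without a call (0.40, adjusted p = 0.073), and passed without fresh replicate 2 or 3 (adjusted p = 0.0043 and 0.048).

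Of 8 genes that act on histones and transcription, 1 rose and 2 fell in Tubastatin A against vehicle cells. These calls were 37.5% of the list, beside 59.3% of all genes. Usp21, which takes ubiquitin off histone H2A, had 11.6, 10.8, 10.6 and 11 RPKM in Tubastatin A cells, 18.2, 18.1 and 19.6 RPKM in vehicle cells and 13.0, 9.87 and 11 RPKM in fresh cells. Vehicle libraries were above all others, with a fall of 0.71 under Tubastatin A (log2 change -0.71, SE 0.11, adjusted p = 0.00012) and a rise of 0.68 in vehicle against fresh cells (SE 0.11, adjusted p = 0.00020). The difference of treated from fresh cells was -0.03 (95% interval -0.26 to 0.20), which turned to 0.63 with equal totals. Usp16, another H2A protease, averaged 9.34 ± 0.68 RPKM in Tubastatin A cells, 7.28 ± 0.19 RPKM in vehicle cells and 15.5 ± 2.7 RPKM in fresh cells, and was below fresh cells in vehicle (-0.98, SE 0.13, adjusted p = 3.8e-05) and treated cells (-0.66, SE 0.12, adjusted p = 0.00054), where the change turned to 0.0069 with equal totals. Its 0.32 over vehicle (adjusted p = 0.043) was lost without any 1 of Tubastatin A replicates 1, 2 and 4 or the vehicle replicates (adjusted p between 0.072 and 0.12). Usp16 shares an exon with Cct8 on the other strand.

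Usp22, the deubiquitinase of the SAGA coactivator, was the most abundant of the list, with 53.5, 47.8, 42.8 and 43.4 RPKM in Tubastatin A cells, 40.2, 32.3 and 28.3 RPKM in vehicle cells and 84.0, 45.2 and 83.6 RPKM in fresh cells. Treated libraries were above vehicle libraries, and fresh replicate 2 lay among the treated ones. The gene fell in vehicle against fresh cells (-1.02, SE 0.22, adjusted p = 0.0014), which was lost with equal totals (-0.43). Its 0.48 over vehicle (adjusted p = 0.064) passed without vehicle replicate 1 or fresh replicate 1 or 2 (adjusted p = 0.044, 0.048 and 0.0058). The -0.54 of treated against fresh cells (adjusted p = 0.037) turned to 0.17 with equal totals and was lost without Tubastatin A replicates 2, 3 or 4, vehicle replicate 2 or fresh replicates 1 or 3 (adjusted p between 0.052 and 0.16).

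Usp36, a nucleolar protease, averaged 6.99 ± 1.1 RPKM in Tubastatin A cells, 9.69 ± 0.85 RPKM in vehicle cells and 12.4 ± 2.1 RPKM in fresh cells. Its -0.75 against fresh cells (SE 0.14, adjusted p = 0.00056) was lost with equal totals (-0.10), and its -0.43 against vehicle (adjusted p = 0.021) was lost with equal totals (-0.32) and without Tubastatin A replicate 4, vehicle replicate 1 or vehicle replicate 3 (adjusted p = 0.062, 0.053 and 0.083). Usp51, a relative of Usp22 that was named after its values were seen, was read in cultured cells alone, apart from 1 read: 81, 25, 68 and 37 reads in Tubastatin A cells, 73, 34 and 48 reads in vehicle cells and 0, 1 and 0 reads in fresh cells. The third relative, Usp27x, stood at 1.12 ± 0.039, 0.872 ± 0.076 and 0.783 ± 0.14 RPKM in Tubastatin A, vehicle and fresh cells. Usp42 and Usp48 passed in no comparison on the deposited scale. Against fresh cells the list had 2 genes higher and 3 lower in treated cells and 2 and 2 in vehicle cells. These calls were 62.5% and 50% of the list, beside 64.9% and 67.0% of all genes. The counts became 4 and 0, and 4 and 1, with equal totals (54.7% and 19.4%, and 49.1% and 22.6% of all genes).

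Of the 3 genes tied to RNA, Usp39 and Otud6b rose in culture and were lower with Tubastatin A. Usp39, a splicing factor that lacks protease activity, had 39.9, 37.7, 31.1 and 39.9 RPKM in Tubastatin A cells, 60.6, 60.5 and 54.7 RPKM in vehicle cells and 26.8, 36.2 and 28.6 RPKM in fresh cells. Vehicle libraries were above all others, with -0.65 for treated against vehicle cells (SE 0.13, adjusted p = 0.0011) and 0.93 for vehicle against fresh cells (SE 0.14, adjusted p = 8.6e-05). Its 0.28 over fresh cells in treated libraries passed without Tubastatin A replicate 3 or fresh replicate 2 (adjusted p = 0.029 and 0.0096). Otud6b, which acts in the assembly of the proteasome and in translation, had 24.4, 26.3, 21.5 and 25.3 RPKM in Tubastatin A cells, 38.0, 39.4 and 41.0 RPKM in vehicle cells and 22.3, 25.8 and 26.4 RPKM in fresh cells. Treated and fresh libraries overlapped, with -0.02 between them, which turned to 0.67 with equal totals, and treated cells were below vehicle cells by 0.68 (log2 change -0.68, SE 0.10, adjusted p = 0.00017). Usp10, bound by the stress granule protein G3bp1, passed in no comparison on the deposited scale. Its means were 18.6 ± 2.2, 18.9 ± 1.9 and 18.8 ± 3.0 RPKM in Tubastatin A, vehicle and fresh cells, with a difference of treated from vehicle cells of -0.02 (95% interval -0.31 to 0.26).

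Among 7 less studied genes, 1 rose and 3 fell with Tubastatin A against vehicle (57.1% called, beside 59.3% of all genes). In vehicle against fresh cells 4 rose and 2 fell (85.7% called, beside 67.0% of all genes), or 5 and 2 with equal totals (49.1% and 22.6% of all genes). Usp40 had 1.76, 1.77, 2.5 and 1.57 RPKM in Tubastatin A cells, 4.25, 3.41 and 4.17 RPKM in vehicle cells and 1.96, 1.39 and 1.66 RPKM in fresh cells, so that vehicle libraries were above all others. Its changes were -0.77 for treated against vehicle cells (SE 0.13, adjusted p = 0.00038) and 0.89 for vehicle against fresh cells (SE 0.14, adjusted p = 0.00016), with an exon shared with Dgkd on the other strand. Usp43 was read 0, 23, 25 and 0 times in Tubastatin A cells, 157, 249 and 104 times in vehicle cells and 24, 18 and 36 times in fresh cells. Vehicle libraries again had the most reads, and treated cells were below them by 0.73 (log2 change -0.73, SE 0.11, adjusted p = 0.00017). Usp24 followed with -0.56 for treated against vehicle cells and 0.65 for vehicle against fresh cells (adjusted p = 0.0048 and 0.0023).

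Usp54, a close relative of Usp53, had 1.49, 1.09, 1.38 and 1.19 RPKM in Tubastatin A cells, 1.79, 0.924 and 1.23 RPKM in vehicle cells and 10.7, 4.83 and 6.69 RPKM in fresh cells. Fresh libraries were above all cultured ones, at 5.63 times the vehicle mean (log2 change -1.82, SE 0.22, adjusted p = 1.7e-05) and 5.76 times the treated mean (-1.82, SE 0.21, adjusted p = 1.1e-05), while treated and vehicle cells differed by -0.01 (95% interval -0.46 to 0.45). Usp31 was higher in both cultured groups, with 5.18 ± 0.85 RPKM in Tubastatin A cells, 5.01 ± 0.52 RPKM in vehicle cells and 2.31 ± 0.59 RPKM in fresh cells, and differed by 0.91 (adjusted p = 0.00029) and 0.87 (adjusted p = 0.00057) from fresh cells. Usp53 rose with Tubastatin A (0.58, adjusted p = 0.0058) after a lower level in vehicle than in fresh cells (-0.82, adjusted p = 0.00069), and Usp50, at 0.591 to 0.836 RPKM by group mean, passed in no comparison on the deposited scale.

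Promoters were read for 4 genes that show the contrasting patterns: Usp20 (highest log2 change under Tubastatin A), Uchl5 (highest in vehicle cells), Usp11 (lowest in vehicle cells) and Usp2 (highest in fresh cells). Each is the 250 bases before the RefSeq start on the plus strand of build GRCm38.p6, 5′ to 3′, at chr2:30982029-30982278, chr1:143777028-143777277, chrX:20703659-20703908 and chr9:44084670-44084919; capitals mark matches to the motifs named after the sequences. The Usp2 start lies inside the annotated gene, chr9:44067021-44095627.
Usp20: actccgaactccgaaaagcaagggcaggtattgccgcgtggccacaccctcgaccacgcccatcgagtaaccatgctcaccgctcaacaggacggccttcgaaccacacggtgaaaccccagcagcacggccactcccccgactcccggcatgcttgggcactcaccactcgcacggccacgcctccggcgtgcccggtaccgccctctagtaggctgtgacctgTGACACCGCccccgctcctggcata
Uchl5: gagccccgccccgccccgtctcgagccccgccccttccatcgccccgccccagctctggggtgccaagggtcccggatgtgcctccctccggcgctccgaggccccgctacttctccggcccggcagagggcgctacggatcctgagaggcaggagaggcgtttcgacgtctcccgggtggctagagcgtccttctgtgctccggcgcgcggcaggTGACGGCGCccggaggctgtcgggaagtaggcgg
Usp11: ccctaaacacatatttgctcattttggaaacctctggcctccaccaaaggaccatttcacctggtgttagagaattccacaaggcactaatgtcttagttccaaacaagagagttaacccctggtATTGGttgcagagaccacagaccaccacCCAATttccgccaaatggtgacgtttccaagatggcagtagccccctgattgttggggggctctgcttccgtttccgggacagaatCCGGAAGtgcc
Usp2: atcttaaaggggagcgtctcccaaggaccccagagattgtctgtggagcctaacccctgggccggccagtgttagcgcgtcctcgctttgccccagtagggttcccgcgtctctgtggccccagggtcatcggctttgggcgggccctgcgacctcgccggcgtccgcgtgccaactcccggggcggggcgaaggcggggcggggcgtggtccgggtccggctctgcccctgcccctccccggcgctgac
The search covered both strands for CACGTG (an E-box), CCGGAAG (ETS factors), TTTGGCGC and TTTCCCGC (E2F factors), TGACNNNGC (the core of the antioxidant element), TGACTCA (AP-1) and CCAAT (NF-Y). Usp20 and Uchl5 each held TGACNNNGC, starting 25 and 34 bases before the start, although their RNA moved in opposite directions under Tubastatin A. Usp11 held CCGGAAG 11 bases before the start and CCAAT on each strand at 97 and 125 bases, and Usp2 held none of the motifs. RefSeq promoters were matched for 44 of the 59 genes and 9980 genes of the table. TGACNNNGC was in 18.2% and 14.1% of them, CCGGAAG in 18.2% and 15.6% and CACGTG in 13.6% and 10.1%. CCAAT was in 18.2% and 40.6%, TGACTCA in 4.55% and 3.98%, TTTCCCGC in 2.27% and 2.02% and TTTGGCGC in 0% and 0.972%. These are matches of letters, counted without a test.

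Other genes of the ubiquitin system were measured in the same libraries. The partners of the deubiquitinases numbered 13, of which 4 rose and 4 fell under Tubastatin A against vehicle. These calls were 61.5% of the list, beside 59.3% of all genes. Adrm1, which seats Uchl5 at the proteasome, averaged 146.7 ± 12.6 RPKM in Tubastatin A cells and 70.0 ± 3.45 RPKM in vehicle cells (1.05, adjusted p = 0.00018), so that it rose where Uchl5 fell. Vcp, the partner of Vcpip1, averaged 403.9 ± 49.3 RPKM in Tubastatin A cells and 169.8 ± 14.2 RPKM in vehicle cells (1.24, adjusted p = 1.5e-05), and Wdr20 rose by 0.65 (adjusted p = 0.00019) where its partner Usp46 fell.

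The genes of 5 proteins on which Usp1 or Usp7 act were measured as RNA only. Of these genes 4 fell and Mdm2 rose under Tubastatin A against vehicle, where 29.7% and 29.6% of all genes fell and rose. Pcna, the replication clamp, had 24.1 ± 2.20 RPKM in Tubastatin A cells, 152.8 ± 8.90 RPKM in vehicle cells and 54.7 ± 19.5 RPKM in fresh cells, with -2.62 for treated against vehicle cells (SE 0.20, adjusted p = 5.8e-07), and Fanci changed by -1.75 (SE 0.12, adjusted p = 2.3e-07). Among 31 E2 enzymes measured, 8 rose and 7 fell in that comparison (48.4% called, beside 59.3% of all genes). Ube2c, of the mitotic ligase APC, was at 0.171 to 0.736 RPKM in Tubastatin A cells, 13.1 to 19.1 RPKM in vehicle cells and 1.60 to 2.14 RPKM in fresh cells, and Ube2o was at 20.5 to 29.6, 7.17 to 8.06 and 6.16 to 9.52 RPKM in the same groups. Of 8 E1 enzymes 2 fell (25% called, beside 59.3% of all genes). They were the SUMO-activating subunits Sae1 (-1.16, adjusted p = 2.7e-06) and Uba2 (-0.70, adjusted p = 0.00012). With equal totals these counts were 3 lower and 1 higher for the Usp1 and Usp7 list. They were 13 higher and 5 lower for E2 and 2 and 2 for E1 enzymes. Of all genes 34.8% were then called higher and 26.4% lower.

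The deubiquitinases outside the symbol rule gave a comparison: of 21 measured, 10 rose and 6 fell with Tubastatin A against vehicle (76.2% called, beside 59.3% of the 59 genes and 59.3% of all genes). In vehicle against fresh cells 8 rose and 7 fell (32.0% and 35.0% of all genes), or 13 and 6 with equal totals (49.1% and 22.6%). In treated against fresh cells 7 were higher and 8 lower (29.8% and 35.2% of all genes), or 14 and 3 with equal totals (54.7% and 19.4%). Zup1 and Mindy2 rose with Tubastatin A by 0.95 and 0.88 (adjusted p = 2.2e-05 and 3.2e-05). Zranb1 fell in vehicle against fresh cells (-2.38, SE 0.10, adjusted p = 1.6e-09), to 7.63 ± 0.38 RPKM in vehicle cells, against 44.0 ± 1.48 RPKM in fresh cells.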

How the data were processed

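The deposited table holds RPKM of 12803 genes in 10 libraries, as computed by the authors. The submitters' processing notes list STAR, Subread (featureCounts), Trim Galore, edgeR and mm10; their settings and versions are not given in the sources used here. Libraries were made from 5 ng RNA with a full-length kit, per the labels' protocols, which name no strand marking. With union exon lengths of GENCODE M21, whole reads were recovered within 0.05 reads in every library for 12341 genes (96.4%) and 57 of the 59 genes; these reads give the depths and counts stated. No value is 0, as 2442 values stand at a floor of their gene, 4 of them in Usp43 and Usp51.

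The main test was limma 3.58.1 in R 4.3.3 on log2(RPKM + 1), with a variance trend and 1 model for the 3 groups over all genes. Benjamini-Hochberg adjusted p under 0.05 was called. It was tested on simulated data. Alternatives were other pseudocounts, a filter on 1 RPKM, equal totals, relative log expression, voom on 12016 genes with recovered reads, the groups compared alone, a replicate block, leaving out each library, and a stricter threshold. Tables and figures were made in Python 3.11.15 with pandas 2.3.3, numpy 2.4.6 and matplotlib 3.10.9.

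The members and lists were chosen with earlier results of these data known. Roles were assigned from general knowledge, and each gene was counted in a single role list. Genes named were, per comparison, the 8 highest and 8 lowest changes among called genes whose log2(RPKM + 1) averaged 1 or more, the 2 lowest p per list, and Usp1, Usp2, Usp5, Usp7, Usp8, Usp9x, Usp14, Usp22, Otub1, Uchl3, Uchl5, Vcpip1 and Stambp, which gave 38 genes. The rule also took the 2 lowest p per pathway list and comparison: not all of these are reported here. The other members, and Mdm2, are named outside this rule, after their values were seen, as is the change of Wdr20 with Tubastatin A against vehicle.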

Additional observations from a re-analysis of the deposited data

Results flagged for a closer look

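Each of the 38 named genes was checked for a library far from the others of its group, in the Tubastatin A cells, the group of 4 libraries. Chance flags about 1 in 20 such groups, so the flags given here can be chance among the 38 genes. Usp46 had 2.90 RPKM in Tubastatin A replicate 2, where the other treated libraries had 2.56 to 2.59 RPKM. Usp9x had 3.37 RPKM in Tubastatin A replicate 4, where the others had 4.66 to 4.76 RPKM.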

How the results depend on the processing

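With RPKM totals set equal, vehicle against fresh cells gave 33 genes higher and 9 lower in place of 19 and 19 (49.1% and 22.6% of all genes in place of 32.0% and 35.0%), and Tubastatin A against fresh cells 44 and 6 in place of 21 and 10 (54.7% and 19.4% of all genes in place of 29.8% and 35.2%). The sign turned to positive in 9 of the 59 genes for vehicle against fresh cells, in 15 for Tubastatin A against fresh cells and in 4 for Tubastatin A against vehicle. Of these, 3, 11 and 0 genes had a call on either scale by limma. They were Otud5 (0.23), Usp3 (0.37) and Usp12 (0.11) in vehicle against fresh cells, and in Tubastatin A against fresh cells Otud6b (0.67), Uchl3 (0.41), Usp12 (0.061), Usp16 (0.0069), Usp19 (0.52), Usp21 (0.63), Usp22 (0.17), Usp33 (0.54), Usp10 (0.68), Usp38 (0.57) and Vcpip1 (0.60). The cause was not tested. Leaving out 1 library at a time gave 17 to 26 higher and 11 to 15 lower for Tubastatin A against vehicle, 18 to 23 and 17 to 22 for vehicle against fresh, and 17 to 22 and 9 to 13 for Tubastatin A against fresh. Over all genes these fits gave 3233 to 4192 and 3323 to 4149, 3769 to 4232 and 4099 to 4680, and 3511 to 3907 and 4218 to 4659. Of the calls among the 59 genes, 17 of 22 and 11 of 13, 18 of 19 and 17 of 19, and 16 of 21 and 9 of 10 were kept in all 10 such fits. The calls kept were not counted over all genes. Replicate numbers are shared between groups, and the labels do not say whether they pair libraries. Deviations of same-numbered libraries correlated at -0.17 to 0.33, above 0 in 7 of 9 pairs and above 0.1 in 5, and not every library correlated best with its own number. No pairing was used in the reported values, and the fit with a replicate block gave 20 and 13, 19 and 20, and 20 and 9. Over all genes the block gave 3564 and 3572, 4054 and 4449, and 3611 and 4277. Voom on recovered reads gave 23 and 14, 20 and 18, and 20 and 11 among 57 genes. Over its 12016 genes voom gave 3834 and 3803, 3993 and 4309, and 3672 and 4365. Depth limits Usp18, Usp43 and Usp51, with under 30 reads in some libraries.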
